A study of Homo sapiens with 4 samples.

Results

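The receptors through which blood cells sense cytokines were examined as a set of 10 genes, taken by symbol from the 58365 rows of the expression table: KIT, FLT3, CSF1R, CSF2RA, CSF2RB, CSF3R, EPOR, IL3RA, IL6R and IL6ST. Of the 10 genes, 7 had enough expression to be tested, FLT3 stood at the level of a single fragment, and CSF2RA and IL3RA were listed at 0 throughout. The cells were derived from H1, a line of human embryonic stem cells (hESCs), and the labels name no genetic change. They were grown for 2 days with activin A (40 ng/ml) and BMP4 (50 ng/ml), then for 3 days with VEGF (40 ng/ml) and bFGF (50 ng/ml). The last 3 days, with the same VEGF and bFGF, were run with SB431542 (SB), an inhibitor of TGFβ type I receptors, or without it (DMSO), and RNA was taken at day 8. There were 2 libraries per treatment, each a bulk RNA sample. The study describes a collection of CD31+ cells, a step that the labels do not mention, and the labels do not say whether the libraries of a treatment came from separate cultures. The study speaks of independent experiments in general, in a number that is not that of the libraries here, so p-values measure only the spread between these libraries. The culture description in the labels names no ligand of the 10 receptors.

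Cytokine receptors of blood fall into structural groups. KIT, FLT3 and CSF1R are receptor tyrosine kinases, which phosphorylate themselves when their ligand joins 2 receptor chains. The others belong to the type I cytokine receptor family, which has no kinase of its own and signals through bound JAK kinases to STAT transcription factors. Within that family EPOR and CSF3R work as homodimers, CSF2RA and IL3RA are ligand-binding chains that share the signaling chain CSF2RB, and IL6R binds IL6 and signals through IL6ST (gp130), which many other receptors share. In blood formation KIT marks hemogenic endothelium and early progenitors, whereas CSF1R and CSF3R are best known from the macrophage and granulocyte lineages.

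Levels are given in FPKM (fragments scaled by transcript length and by the number of mapped fragments). They are scaled per length but can be compared between genes only roughly. Overlapping exons and the region listed at 0, both described below, also bear on them. Differences are SB minus DMSO on the log2(FPKM + 1) scale, which understates the change of low genes, with 95% intervals and p-values from limma, adjusted over the 14909 genes tested. Endothelial markers were high in each library, with a summed level of 1633 to 1857 FPKM with DMSO and 1625 to 1814 FPKM with SB for 10 genes including PECAM1 (CD31). The 10 pan-hematopoietic markers summed to 440 to 713 FPKM over the 4 libraries. Among them PTPRC, which encodes the pan-leukocyte antigen CD45, reached at most 0.202 FPKM, whereas LAPTM5 stood at 94.3 to 124 FPKM and TYROBP at 28.5 to 75.2 FPKM. The libraries also differed by replicate number: in 52.6% of the genes tested, both libraries of replicate 1 lay on one side of both libraries of replicate 2. Judged from the value of a single fragment, the other libraries had 75.5% to 94.4% of the depth of SB replicate 2.

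With limma and treatment as the only term, 0 of the 7 receptors passed an adjusted p of 0.05, against 0.134% of all genes tested. With the replicate number added as a block, 4 passed (CSF1R, CSF3R, CSF2RB and IL6ST), against 10.5% of all genes tested. No label says that these numbers pair libraries. A difference of 1 or more was seen in 1 receptor (1.56% of all genes tested) and one of -1 or less in 0 (2.16%). In 5 of the 7 (CSF1R, CSF3R, CSF2RB, IL6ST and KIT) both SB libraries lay above both DMSO libraries, which was so for 21.5% of all genes tested. In 0 of the 7 did both SB libraries lie below, against 16.0% of all genes tested. The groups overlapped in EPOR and IL6R. At an unadjusted p under 0.05, 3 receptors were higher with SB (CSF1R, CSF3R and CSF2RB), against 4.80% of all genes tested, and 0 were lower, against 5.16%. The median difference over the 7 receptors was 0.52, beside 0.04 over all genes tested. RNA of this kind is a bulk measure, in which more cells of a type and more RNA per cell cannot be told apart.

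**Figure D1:**
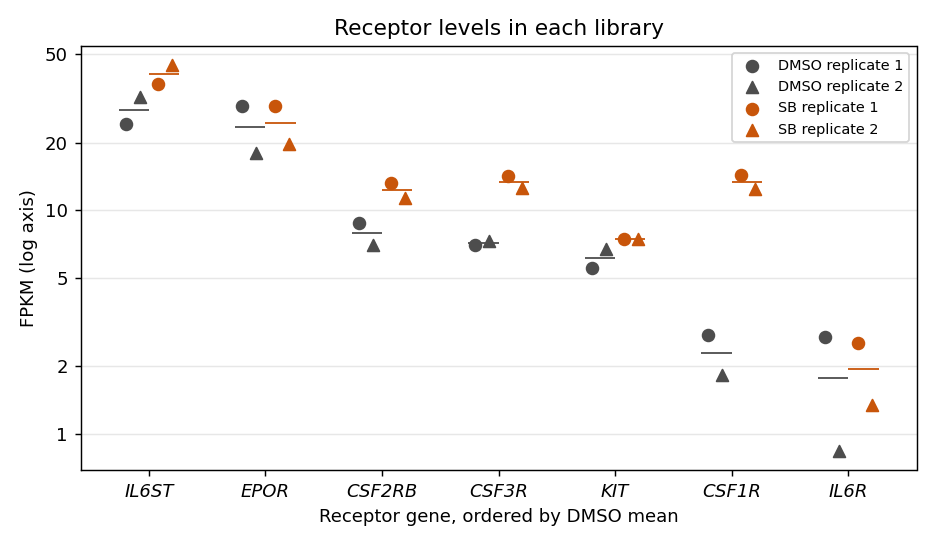
FPKM (log axis) of the 7 tested receptors in each of the 4 libraries; circles are replicate 1, triangles replicate 2, and short lines the mean of each treatment (2 libraries). CSF1R lies among the lowest genes with DMSO (1.83 and 2.77 FPKM) and beside CSF3R and CSF2RB with SB (12.5 and 14.4 FPKM), whereas EPOR and IL6R are ordered by replicate number; FLT3, CSF2RA and IL3RA are too low or at 0 and are not drawn.

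CSF1R showed the largest difference of the set. It encodes the receptor for CSF1 and IL34, which sustains monocytes and macrophages (ENSG00000182578.13, GRCh38 chromosome 5, 150053291 to 150113372, minus strand). Its level was 2.77 and 1.83 FPKM in the DMSO libraries and 14.4 and 12.5 FPKM in the SB libraries. Both SB libraries lay far above both DMSO libraries, and the gap between the groups was larger than the spread within either. The mean was 5.83-fold higher in FPKM with SB (2.30 ± 0.661 against 13.4 ± 1.35 FPKM, SD, n = 2 each). The difference was 2.14 on the log2 scale (95% interval 1.57 to 2.70, limma unadjusted p 0.000227, adjusted p 0.0753). It was 2.03 within replicate 1 and 2.25 within replicate 2. CSF1R ranked 45 of the 14909 genes by unadjusted p. Its values are worth roughly 147 to 1110 fragments on the longest transcript of 3989 nt.

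The annotation gives CSF1R a pair of start sites 26811 bases apart, and the files hold a single value for the gene, so use of either start was not measured. The sequence before the downstream start is printed because SPI1 (PU.1) and RUNX1 are textbook activators of CSF1R there, and both were measured here. Capitals mark matches on either strand to the PU.1 box, which was searched as GAGGAA, to the RUNX site, which was searched as TGTGGT, or to the GATA site, which was searched as AGATAA. The stretch is the 250 bases before the start on the gene's strand (RefSeq, GRCh38.p14, chr5:150086555-150086804, minus strand).
CSF1R downstream start: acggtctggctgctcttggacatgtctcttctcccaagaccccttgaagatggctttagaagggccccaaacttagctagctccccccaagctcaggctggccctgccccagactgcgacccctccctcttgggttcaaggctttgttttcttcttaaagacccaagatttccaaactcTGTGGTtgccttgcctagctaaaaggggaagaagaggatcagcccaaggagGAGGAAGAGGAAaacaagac
The window held 3 matches, a RUNX site at 71 to 66 bases and PU.1 boxes at 20 to 15 and 14 to 9 bases before the start, side by side without overlap. Over all 35116 promoters of the same length in the table, 23.6% held a PU.1 box and 11.0% a RUNX site. The window before the upstream start of CSF1R held none of the 3 motifs. A match describes the letters and is not evidence of binding, and its part in the CSF1R difference was not tested.

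Transcripts of the factors themselves lay higher in both SB libraries. SPI1 stood at 55.4 and 26.2 FPKM with DMSO and at 113 and 63.9 FPKM with SB, a difference of 1.14 (95% interval -0.04 to 2.32, limma adjusted p 0.520). RUNX1 differed by 0.81 (limma adjusted p 0.280) and GATA1 by 0.58 (limma adjusted p 0.322). Of 10 tested factors known to act at receptor genes, 0 passed limma's adjusted p, with 2 at an unadjusted p under 0.05, and 6 lay higher in both SB libraries and 0 lower. Their median difference was 0.40. CEBPA, a factor of myeloid commitment chosen after its values were seen, stood at 1.28 and 1.02 FPKM with DMSO and at 1.26 and 0.885 FPKM with SB.

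KIT, the receptor for stem cell factor and a marker of hemogenic endothelium, progenitors and mast cells, differed little between the treatments (ENSG00000157404.15, chromosome 4, 54657918 to 54740715, plus strand). It stood at 5.49 and 6.69 FPKM with DMSO and at 7.45 and 7.44 FPKM with SB. The SB libraries were close to each other and just above the higher DMSO library. The difference was 0.26 (95% interval -0.21 to 0.72, limma adjusted p 0.762), an interval that includes both a small decrease and an increase. CSF1R was below KIT in both DMSO libraries, at 0.504 and 0.274 of its FPKM, and above KIT in both SB libraries, at 1.93 and 1.67 times its FPKM.

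FLT3, a receptor of lymphoid and early myeloid progenitors, was barely detected (ENSG00000122025.14, chromosome 13, 28003274 to 28100592, minus strand). It was listed at 0.0123 and 0.0127 FPKM with DMSO and at 0 in both SB libraries. On its longest transcript (3842 nt) these values are worth 0.985 and 0.979 fragments, that is a single fragment in each DMSO library. No difference in FLT3 was detectable at this depth.

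CSF2RB, the shared signaling chain of the receptors for IL3, IL5 and GM-CSF, lay higher in both SB libraries (ENSG00000100368.13, chromosome 22, 36913628 to 36940449, plus strand). Its level was 8.78 and 7.00 FPKM with DMSO and 13.2 and 11.3 FPKM with SB. The groups did not overlap, and the mean was 1.56-fold higher in FPKM (7.89 ± 1.26 against 12.3 ± 1.37 FPKM, SD, n = 2 each). The difference was 0.58 (95% interval 0.08 to 1.09, limma unadjusted p 0.0317, adjusted p 0.436).

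The ligand-binding partners of CSF2RB could not be measured. CSF2RA (ENSG00000198223.16, chromosome X, 1268800 to 1310381), the GM-CSF receptor chain, and IL3RA (ENSG00000185291.11, chromosome X, 1336616 to 1382689), the IL3 receptor chain, each have 2 rows, 1 for the X and 1 for the Y copy, and all were listed at 0 in all 4 libraries. Both genes lie in the first pseudoautosomal region, which the X and Y chromosomes share. All 15 genes fixed for that region were listed at 0 in each library, among them SLC25A6 and CD99, which most cells express. Of the 32 protein-coding rows whose identifiers have a copy on X and on Y, 31 were at 0 in all libraries, against 11.5% of the other 18191 protein-coding rows. The zeros of CSF2RA and IL3RA are therefore shared with their neighbors and are not read as lack of expression. CRLF2, the thymic stromal lymphopoietin receptor chain of the same region, was at 0 likewise.

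CSF3R, the G-CSF receptor of the granulocyte lineage, showed the next largest difference after CSF1R (ENSG00000119535.17, chromosome 1, 36466043 to 36483278, minus strand). It stood at 7.00 and 7.32 FPKM with DMSO and at 14.3 and 12.6 FPKM with SB. The DMSO libraries nearly coincided and both SB libraries lay well above them, with a mean 1.88-fold higher in FPKM (7.16 ± 0.228 against 13.4 ± 1.19 FPKM, SD, n = 2 each). The difference was 0.82 (95% interval 0.39 to 1.25, limma unadjusted p 0.00482, adjusted p 0.220), and 0.93 and 0.71 within replicate 1 and 2.

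EPOR, the erythropoietin receptor, did not differ beyond its spread (ENSG00000187266.13, chromosome 19, 11377205 to 11384342, minus strand). Its level was 29.3 and 18.0 FPKM with DMSO and 29.1 and 19.8 FPKM with SB. Both libraries of replicate 1 lay above both libraries of replicate 2, and the treatments overlapped. The difference was 0.06 (95% interval -0.76 to 0.88, limma adjusted p 0.986), and it turned to -0.28 without DMSO replicate 2 and to -0.21 without SB replicate 1. Its annotated exons overlap those of RGL3, a neighbor on the same strand, and RGL3 was at 17.4 and 8.29 FPKM with DMSO and at 7.63 and 2.59 FPKM with SB. Its part in the EPOR value was not tested.

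The promoters of CSF3R and EPOR are set side by side because both are homodimeric receptors and the libraries of the treatments overlapped for EPOR but not for CSF3R. The stretches are again the 250 bases before a start, with the same 3 motifs in capitals (RefSeq, GRCh38.p14, minus strand, chr1:36482914-36483163 for the downstream of a pair of CSF3R starts that lie 401 bases apart, and chr19:11384315-11384564 for EPOR).
CSF3R downstream start: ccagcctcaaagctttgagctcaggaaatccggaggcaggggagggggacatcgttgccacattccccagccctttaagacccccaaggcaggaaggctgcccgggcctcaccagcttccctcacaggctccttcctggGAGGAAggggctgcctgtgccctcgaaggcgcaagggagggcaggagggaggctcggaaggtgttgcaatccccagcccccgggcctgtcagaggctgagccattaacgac
EPOR: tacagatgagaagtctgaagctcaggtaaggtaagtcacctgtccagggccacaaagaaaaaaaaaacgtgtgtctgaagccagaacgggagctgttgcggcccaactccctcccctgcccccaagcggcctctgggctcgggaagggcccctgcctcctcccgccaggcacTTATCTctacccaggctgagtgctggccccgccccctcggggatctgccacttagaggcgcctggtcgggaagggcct
The CSF3R window held a PU.1 box at 111 to 106 bases before the start, the window before the upstream CSF3R start held none of the 3 motifs, and the EPOR window held a GATA site on the opposite strand at 78 to 73 bases before it. GATA1 is the textbook activator of EPOR, and 9.17% of all promoters of this length held a GATA site. Of the 11 entries found for 9 of the 10 receptors, 5 held a PU.1 box, 1 a RUNX site and 1 a GATA site. The PU.1 boxes were in entries of CSF1R, CSF3R, IL6R, FLT3 and CSF2RA, and FLT3 and CSF2RA were not tested. Over all promoters of this length, 23.6% held a PU.1 box. IL6R, whose treatments overlapped, held 2 PU.1 boxes, and KIT and IL6ST, whose treatments did not overlap, held none of the 3 motifs. A link between motifs and treatment differences was not tested, and the CSF3R and EPOR promoters were picked for printing by their values. CSF2RB had no entry.

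IL6ST, the signaling chain gp130, had the highest mean FPKM of the measurable receptors in each group, although EPOR was above it in DMSO replicate 1 (ENSG00000134352.19, chromosome 5, 55935095 to 55994993, minus strand). It stood at 24.2 and 32.0 FPKM with DMSO and at 36.7 and 44.5 FPKM with SB. Both SB libraries lay above both DMSO libraries, and replicate 2 lay above replicate 1 in each treatment. The difference was 0.52 (95% interval -0.04 to 1.08, limma adjusted p 0.540), and 0.58 and 0.46 within replicate 1 and 2. IL6ST has exons that overlap those of AC008914.1 on the opposite strand, which reached at most 0.0532 FPKM.

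IL6R, the IL6-binding chain, was the lowest of the tested receptors (ENSG00000160712.12, chromosome 1, 154405193 to 154469450, plus strand). Its level was 2.70 and 0.838 FPKM with DMSO and 2.54 and 1.34 FPKM with SB. As for EPOR, the order followed the replicate number and the treatments overlapped. The difference was 0.14 (95% interval -0.96 to 1.25, limma adjusted p 0.969), and it turned to -0.36 without DMSO replicate 2 and to -0.16 without SB replicate 1. The lowest value, 0.838 FPKM, is worth roughly 99.4 fragments on the longest transcript of 5914 nt. IL6ST exceeded IL6R by 8.95 to 38.2 times in FPKM, depending on the library.

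**Figure D2:**
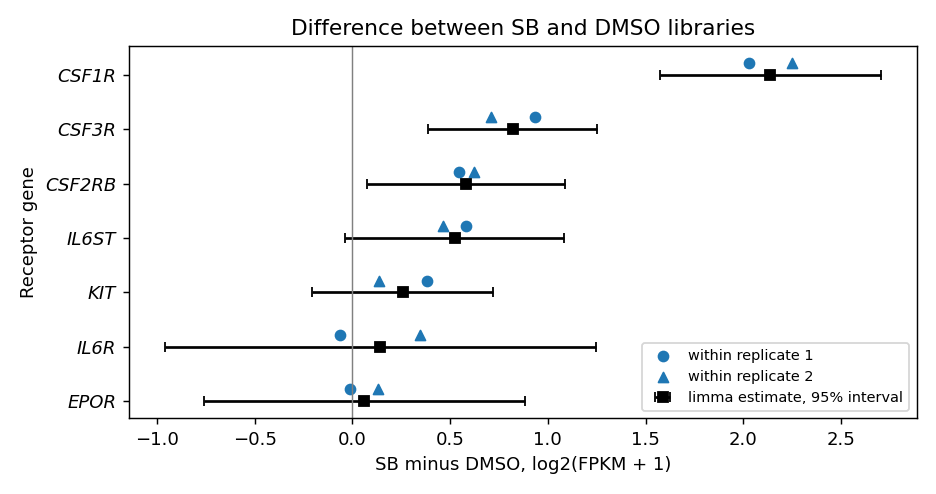
SB minus DMSO on the log2(FPKM + 1) scale for the 7 tested receptors; squares are limma estimates with 95% intervals (4 libraries), and circles and triangles the differences within replicate 1 and 2. The intervals of CSF1R (1.57 to 2.70), CSF3R (0.39 to 1.25) and CSF2RB (0.08 to 1.09) lie above 0, before adjustment, and those of the other 4 receptors include 0.

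The order of the levels differed between the treatments in the places of CSF1R, CSF2RB, CSF3R and KIT. With DMSO the order of mean FPKM was IL6ST, EPOR, CSF2RB, CSF3R, KIT, CSF1R and IL6R. In it the libraries of IL6ST and EPOR, of CSF2RB and CSF3R, and of CSF1R and IL6R overlapped as neighbors. With SB the order was IL6ST, EPOR, CSF3R, CSF1R, CSF2RB, KIT and IL6R, and the libraries of CSF3R, CSF1R and CSF2RB overlapped. Within each SB library CSF2RB was the lowest of these. CSF1R stood at 1.08 and 1.10 times its FPKM and CSF3R at 1.08 and 1.11 times. With CSF2RA and IL3RA not measurable, the FPKM of the other 8 genes summed to 80.3 and 73.7 with DMSO and to 118 and 109 with SB. CSF1R made up 3.45% and 2.49% of that sum with DMSO and 12.2% and 11.4% with SB.

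The receptors also fell apart by how much they varied with the replicate number. For EPOR and IL6R the mean difference between replicate numbers (-0.60 and -0.80, replicate 2 minus replicate 1) was larger in size than the difference between treatments, which was so in 57.7% of all genes tested. For CSF3R it was -0.06, for KIT 0.12, for CSF2RB -0.25, for CSF1R -0.30 and for IL6ST 0.33. What the number stands for is not given in the labels.

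**Figure D3:**
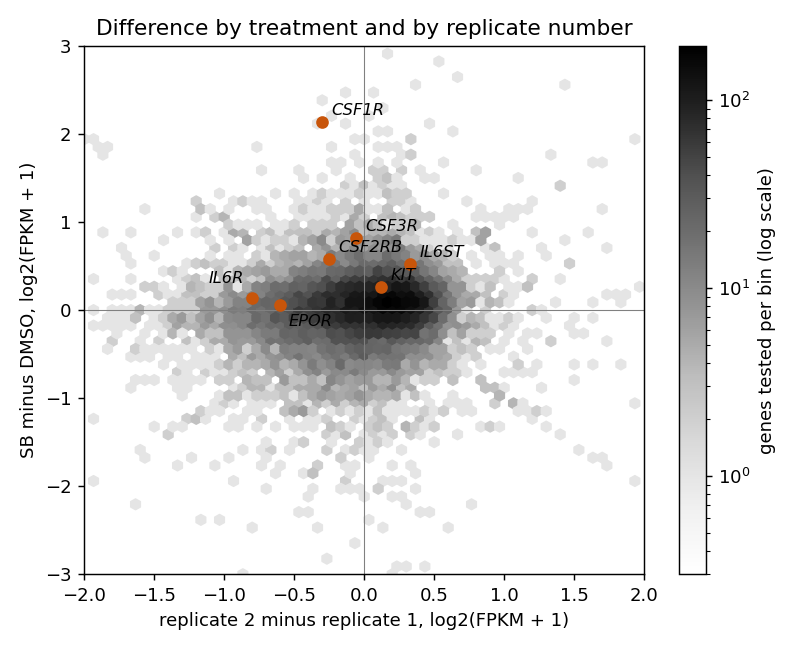
Each tested receptor (orange points) and all genes tested (grey hexagons, darker for more genes on a log scale) by the mean difference between replicate numbers (x axis, replicate 2 minus replicate 1) and the difference between treatments (y axis, SB minus DMSO), both in log2(FPKM + 1); 94 genes lie outside the axes. CSF1R lies far up at 2.14 and near the middle of the x axis at -0.30, while IL6R (-0.80) and EPOR (-0.60) lie to the left at a treatment difference near 0.

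Of 9 genes for ligands of these receptors, a list that holds IL6 but no other ligand that signals through IL6ST, 3 were tested, with 0 past limma's adjusted p and 0 at an unadjusted p under 0.05, and a median difference of -0.14. CSF1, a ligand of CSF1R, stood at 3.02 and 2.54 FPKM with DMSO and at 3.42 and 5.02 FPKM with SB (difference 0.45, 95% interval -0.15 to 1.05, limma adjusted p 0.663). KITLG, which encodes stem cell factor, stood at 4.50 and 7.42 FPKM with DMSO and at 3.69 and 6.52 FPKM with SB, with overlapping groups. FLT3LG was at 1.13 to 1.59 FPKM over the 4 libraries. IL34, CSF2, CSF3, EPO and IL6 each stayed at or under 0.335 FPKM, and IL3 was listed at 0 throughout.

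Of 32 other cytokine receptors, 17 were tested, with 0 past limma's adjusted p. Both SB libraries lay above both DMSO libraries for 3 of them and below for 5, with a median difference of -0.11, against 0.52 for the 7 members. IL1R1, the signaling receptor for IL1, differed by 1.07 (95% interval 0.35 to 1.78, limma adjusted p 0.311), and IL18R1 by 0.91 (limma adjusted p 0.344). IL4R, the IL4-binding chain, was lower in both SB libraries, with a difference of -0.63 (95% interval -1.12 to -0.15, limma adjusted p 0.373). IL2RA, IL9R, IL12RB1 and CRLF2 were listed at 0 in all libraries. These zeros are not read as lack of expression, and CRLF2 lies in the pseudoautosomal region described above. At an unadjusted p under 0.05 there were 2 genes higher and 1 lower.

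Downstream of the receptors, 18 of 19 JAK, STAT and SRC-family or related kinase genes were tested, with 0 past limma's adjusted p, 9 higher in both SB libraries and 0 lower. Of these, 5 were higher at an unadjusted p under 0.05. SYK, a kinase of leukocytes and platelets, stood at 1.03 and 1.09 FPKM with DMSO and at 4.78 and 5.18 FPKM with SB (difference 1.54, 95% interval 1.06 to 2.02, limma adjusted p 0.0948). JAK2, the kinase bound by EPOR and CSF2RB, stood at 3.19 and 4.43 FPKM with DMSO and at 3.65 and 4.93 FPKM with SB, and was chosen after its values were seen. The median of the list was 0.13.

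Of 25 adaptor, ERK and PI3K genes, all tested, 0 passed limma's adjusted p, 9 lay higher in both SB libraries and 2 lower, and the median was 0.09. At an unadjusted p under 0.05, 3 were higher. VAV1, a guanine nucleotide exchange factor of blood cells, differed by 0.90, PIK3R5, a regulatory subunit of PI3Kγ, by 1.08, and PIK3CB by 0.77, with limma adjusted p of 0.173, 0.188 and 0.245.

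The negative regulators were divided. Of 27 tested genes, 0 passed limma's adjusted p, 7 lay higher in both SB libraries and 7 lower, 4 and 3 at an unadjusted p under 0.05, with a median of 0.07. PTPN6, the phosphatase SHP-1 of blood cells, stood at 21.6 and 18.1 FPKM with DMSO and at 56.4 and 43.9 FPKM with SB (difference 1.29, limma adjusted p 0.151). SLA, an adaptor of blood cells that lowers antigen receptor levels, differed by 1.42 (limma adjusted p 0.151). SPRY4, a feedback inhibitor of ERK signaling, lay lower, at 13.2 and 13.2 FPKM with DMSO and 5.95 and 6.10 FPKM with SB (difference -1.01, limma adjusted p 0.144).

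Genes known as STAT targets had no common direction. Of 12 tested, 0 passed limma's adjusted p, 4 lay higher in both SB libraries and 3 lower, with 0 and 2 at an unadjusted p under 0.05 and a median of 0.06. PIM1, a survival kinase, differed by -1.27 (95% interval -1.80 to -0.73, limma adjusted p 0.151). SOCS3, the feedback inhibitor that binds gp130, G-CSF and other receptors, stood at 31.0 and 22.3 FPKM with DMSO and at 12.8 and 10.7 FPKM with SB (difference -1.11, 95% interval -1.70 to -0.51, limma adjusted p 0.224). BCL2L1 differed by 0.49 (limma adjusted p 0.516). CISH, a target of STAT5, lay between 1.43 and 1.65 FPKM in all libraries and was chosen after its values were seen.

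Markers of several cell types also differed between the treatments, and their part in the receptor differences was not tested. Pan-hematopoietic markers lay higher in both SB libraries for 8 of 9 tested genes (7 at an unadjusted p under 0.05, 0 past limma's adjusted p), with a median of 0.85, and the 10 listed genes summed to 440 to 451 FPKM with DMSO and to 695 to 713 FPKM with SB. CORO1A (1.57), TYROBP (1.31) and VAV1 (0.90) had the smallest p. Megakaryocyte markers lay higher for 9 of 9 (median 1.59, 0 past limma's adjusted p, 9 at an unadjusted p under 0.05, sums of 234 to 240 against 633 to 730 FPKM), with PPBP at 2.83, GP1BB at 2.15 and PLEK at 1.95. Endothelial markers had a median of -0.09 over 10 genes, with 2 higher in both SB libraries, 1 lower and 0 past limma's adjusted p. CLDN5 differed by 1.04, CDH5 by -0.28 and ERG by -0.22.

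CSF1R and CSF3R are best known from macrophages and granulocytes, and the marker lists of both were examined. Of 13 macrophage and monocyte markers 4 were tested, all higher in both SB libraries (median 0.61, 2 at an unadjusted p under 0.05, 0 past limma's adjusted p), and the list summed to 56.3 to 78.0 FPKM with DMSO and to 126 to 162 FPKM with SB. AIF1 (1.48), CD68 (0.75) and LYZ (0.47) made up these with MRC1. AIF1 stood at 26.7 and 41.1 FPKM with DMSO and at 80.6 and 111 FPKM with SB, and MRC1 at 16.5 and 22.9 FPKM with DMSO and at 24.1 and 30.1 FPKM with SB. FCGR1A was listed at 0 in all libraries, and CD14, C1QA, C1QB and C1QC did not exceed 0.169 FPKM in any library. Of 10 granulocyte markers 2 were tested (AZU1 -0.31 and CTSG 0.24, median -0.03, 0 at an unadjusted p under 0.05). AZU1 passed the filter only through DMSO (mean 1.47 FPKM with DMSO, 0.998 with SB) and CTSG only through SB (0.763 and 1.09 FPKM). Their directions therefore go with the filter. The granulocyte list summed to 3.06 to 3.73 FPKM with DMSO and to 2.83 to 3.27 FPKM with SB, and ELANE, FCGR3B and S100A8 were listed at 0 in all libraries. Of 8 mast cell and basophil markers 2 were tested, PRG2 (2.06) and HDC (0.47), both higher in both SB libraries. Their median was 1.26, with both at an unadjusted p under 0.05 and 0 past limma's adjusted p. The list summed to 15.2 to 15.9 FPKM with DMSO and to 28.4 to 30.8 FPKM with SB. TPSB2, CMA1 and SIGLEC6 were at 0 throughout. CPA3, TPSAB1 and MS4A2, chosen after their values were seen, did not exceed 0.620 FPKM in any library.

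Erythroid markers lay lower with SB, while EPOR overlapped between treatments, and the part of either in the other was not tested. Both SB libraries lay below both DMSO libraries for 5 of 7 tested genes (median -0.93, 4 at an unadjusted p under 0.05, 0 past limma's adjusted p), and the list summed to 977 to 1022 FPKM with DMSO and to 649 to 746 FPKM with SB. HBZ differed by -2.12, ALAS2 by -2.06 and RHAG by -1.29. Mesenchymal markers lay lower for 7 of 8 (median -0.86, 5 at an unadjusted p under 0.05, 0 past limma's adjusted p, sums of 323 to 370 against 175 to 179 FPKM), with COL1A1 at -2.46, COL3A1 at -1.03 and PRRX1 at -0.89. Endoderm and liver markers lay lower for 7 of 8 (median -2.50, sums of 339 to 343 against 49.5 to 78.4 FPKM), and 4 passed limma's adjusted p, among them APOA1, which fell by 3.81 (adjusted p 0.0201), AFP, which fell by 3.55 (adjusted p 0.0232), and TTR, which fell by 3.00 (adjusted p 0.0353).

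**Figure D4:**
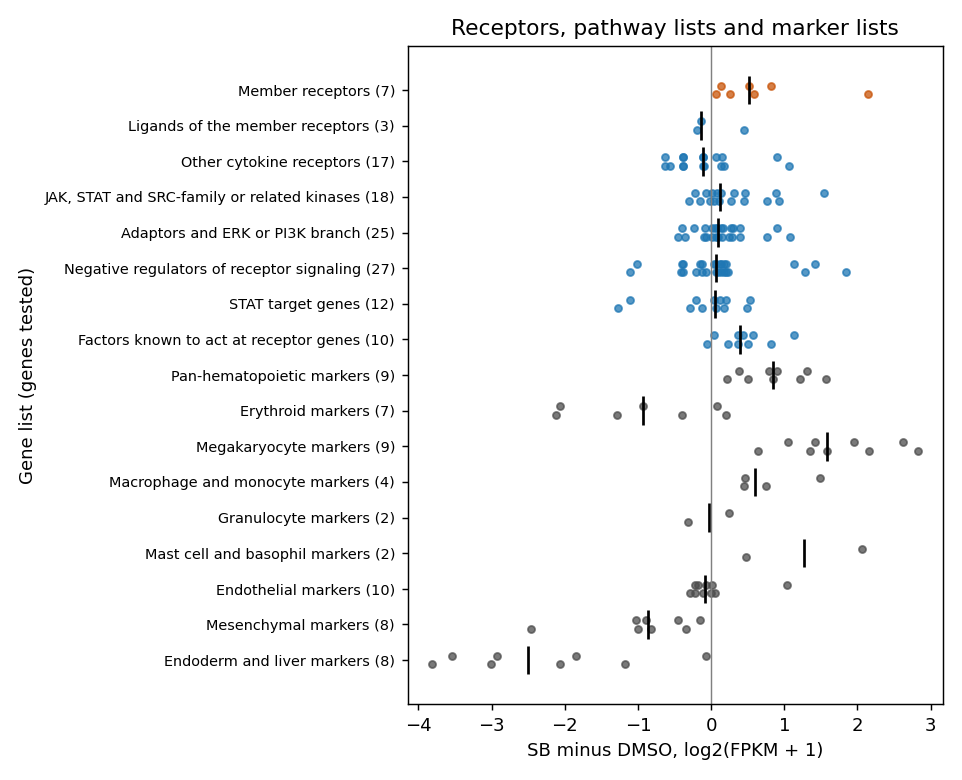
SB minus DMSO on the log2(FPKM + 1) scale for each tested gene (points) of the receptor set (orange), the pathway lists (blue) and the marker lists (grey); black lines are medians and the number of genes tested is in brackets. The median is 0.52 for the receptors, -0.11 for other cytokine receptors, 0.85 for pan-hematopoietic, 1.59 for megakaryocyte and -0.93 for erythroid markers.

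Genes with profiles most like those of the 3 receptors with the smallest p were found by Euclidean distance between log2(FPKM + 1) values, centered over the 4 libraries, among 10003 genes with a mean of at least 5 FPKM. The closest to CSF1R were GP1BB (distance 0.143), THBS1 (0.230) and CXCL1 (0.313). GP1BB, a platelet glycoprotein, stood at 8.64 and 5.96 FPKM with DMSO and at 35.5 and 35.5 FPKM with SB. The closest to CSF3R were CHST15 (0.0219), MEF2C (0.0302) and RNASEH2B (0.0451). The closest to CSF2RB were AC012146.1 (0.0589), CLEC14A (0.0593) and NFE2 (0.0601). With 4 libraries many genes share such a profile, and these are descriptions of likeness only.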

How the data were processed

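RNA of 4 H1-derived samples (2 DMSO, 2 SB) was analysed at day 8. The authors deposited FPKM values, 1 column per library, and no counts. Processing was done by a service company, and the submitters' processing notes name BWA, Bowtie, RSEM and the build hg19, without versions or roles. The row positions nevertheless matched GRCh38: 95.5% of the 58365 rows were found in GENCODE 29, 99.8% of these at the same position. Coordinates are therefore given on GRCh38, counted from 1. Whether counting used strand is not given in the sources used here, and values of overlapping genes are uncertain.

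Groups came from sample titles. A symbol with several rows was represented by the row with the highest mean. Genes with a mean of at least 1 FPKM in at least 1 group were tested (14909) on log2(FPKM + 1) with limma 3.58.1 in R 4.3.3 (empirical Bayes with a trend, group as the only term, Benjamini-Hochberg adjustment, threshold 0.05). Some listed genes passed this filter only through the group where they were higher, among them PPBP, TREML1 and SLA through SB and PRRX1 through DMSO. The direction of such genes goes with the filter, and they enter the counts of their lists. The tested receptors passed in both groups. No scaling between libraries was applied. Permuting 2 against 2 libraries exactly gives p values of 0.333 (two-sided) at the least and was left out. The script was tested on simulated data with independent noise in each library and no effect of the replicate number. That test does not cover such an effect. FPKM fixes the scale of each library, so depth is known only from the step between the lowest values of single-exon genes, and rough fragment numbers cover counting error only and assume the longest transcript.

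The receptors, the gene lists and the tests were chosen with earlier results of these data known. All 10 receptors are named, up to 3 genes per list by smallest unadjusted p, all ligands, genes at 0 in all libraries and the 3 nearest profiles; other genes, among them PTPRC, PECAM1, LAPTM5, CD14, C1QA, C1QB, C1QC, MRC1 and RGL3, were chosen after their values were seen. Some genes that this rule names are not reported here. Lists are described by counts and medians, without a test. Promoter sequences came from RefSeq (GRCh38.p14). Alternatives were no filter (rows above 0 in at least 1 library), at least 5 FPKM in at least 2 libraries, a pseudocount of 0.1, upper-quartile, median-of-ratios, TPM and quantile scaling, no trend, the replicate number as a block, and removal of each library.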

Additional observations from a re-analysis of the deposited data

How the results depend on the processing

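With limma, 20 genes passed over the whole table. The count was 0 with no filter (2739 at an unadjusted p under 0.05), 31 with quantile normalization, 1564 with the replicate number as a block, and 0 to 16 without a single library. It was 0 without DMSO replicate 1 (1101 at an unadjusted p under 0.05) and 7 without SB replicate 1. Without SB replicate 2, 12 of 16 were higher, against 4 of 20 with all libraries. Of the 7 receptors, 0 passed under each of these but the replicate block, where 4 passed (CSF1R, CSF3R, CSF2RB and IL6ST, adjusted p 0.00488, 0.0208, 0.0325 and 0.0270), against 10.5% of all genes tested. The labels do not say that the numbers pair libraries, and there are only 2 pairs, so the pairing is not established. Deviations from the group means nevertheless correlated at 0.528 across genes between the libraries numbered 1. CSF1R, CSF3R, CSF2RB, IL6ST and KIT kept their direction under all 13 alternatives, with CSF1R between 1.93 and 2.52 (adjusted p 0.00488 to 0.343). The cause of these changes was not tested. The direction reversed only for EPOR (-0.28 to 0.40 over the removals of a library) and IL6R (-0.36 to 0.65). IL6R was not tested under the stricter filter. The removal of a library leaves 1 library in a group, which is assumed to vary like the other group. Scaling shifted the median of all genes from 0.04 to between -0.0020 and 0.021.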
